A study of Mus musculus with 18 samples.

Results

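Sphingomyelinases split sphingomyelin, an abundant lipid of neuronal membranes and myelin, into ceramide and phosphocholine. The enzymes are named for the pH at which they work and sit in different membranes: the acid enzyme Smpd1 in the lysosome, and the neutral enzymes Smpd2 in the endoplasmic reticulum (ER), Smpd3 at the plasma membrane and Golgi, and Smpd4 in the ER and nuclear envelope. Smpdl3a and Smpdl3b are related to Smpd1 in sequence, and act on nucleotides and on other phosphodiester substrates. The partners considered with them were Nsmaf, the adaptor FAN that couples the tumour necrosis factor receptor to neutral sphingomyelinase, Asah2, the neutral ceramidase that removes the ceramide formed at the cell surface, and Cln3, the lysosomal membrane protein whose loss causes juvenile neuronal ceroid lipofuscinosis (Batten disease).

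These 9 genes were looked up by symbol among the 34620 genes of the RNA-Seq count files. All 9 were present, and all 9 were among the 17421 genes with enough counts to be tested. Counts came from 6 libraries of ventral dentate gyrus, microdissected along the granule cell layer of adult (8- to 12-week-old) male Swiss Webster mice, with 2 libraries in each of 3 groups. WT males had WT mothers and grandmothers. F1 males, themselves of WT genotype, were born to dams that carried 1 mutant copy of the serotonin 1A receptor gene (maternal and grandmaternal genotype 5HT1A-/+). By the paper's methods, the fathers of F1 mice were heterozygous too. F2 males were offspring of F1 females and WT males, so that neither parent carried the mutation (maternal genotype WT, grandmaternal genotype 5HT1A-/+). No library came from a mouse with the receptor mutation, and Htr1a itself, at 59.0 ± 4.57 CPM (read counts scaled to the library size; mean ± SD, n = 2) in WT, did not pass the test in F1 (log2 fold change -0.18, adjusted p = 0.332, edgeR exact test) or F2 (log2 fold change 0.20, adjusted p = 0.266, edgeR exact test). How many animals went into a library is not given, and p-values measure the spread between these libraries.

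Levels are CPM normalised by the TMM method, and a gene was called where the adjusted p (q) of edgeR's exact test was under 0.01. Reads counted on genes ranged from 26358165 to 33727936 per library. All lists of cell type markers held transcripts in every library, those of granule neurons (Prox1, Calb1 and 4 others) summing to 816 and 834 CPM in WT, 722 and 903 CPM in F1, and 1035 and 983 CPM in F2. Glial RNA was present as well: the 8 oligodendrocyte genes (Mbp, Mog and others) summed to 1118 and 2033 CPM in the WT libraries, 3056 and 2294 CPM in F1, and 1578 and 2967 CPM in F2, so that F2 replicate 1 lay below WT replicate 2, and 4 of them were called in F1, 2 in F2 and 2 in both, all higher. The 6 astrocyte genes summed to 857 and 946 CPM in WT, 1003 and 1336 CPM in F1, and 1466 and 1160 CPM in F2, with 1 called in F1, 3 in F2 and 1 in both. The 7 microglia genes summed to 118 and 121 CPM in WT, 141 and 162 CPM in F1, and 180 and 157 CPM in F2, of which 0 were called in F1 and 4 in F2 (edgeR exact test). None of these marker genes was at 0 in any library. Of all tested genes, 12.3% were called in F1, 12% in F2 and 7.67% in both. In bulk tissue, more cells of a type and more RNA per cell cannot be told apart. The part of the marker shifts in the results below was not tested.

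The sphingomyelinase genes moved in opposite directions. In F1, 6 of the 9 genes were called, 2 higher (Smpd1 and Smpd3) and 4 lower (Smpd2, Smpd4, Nsmaf and Cln3) than in WT. Over all tested genes 12.3% were called in F1, 3.77% higher and 8.54% lower. In F2, 5 genes were called, Smpd3 higher and the same 4 lower, against 12% of all tested genes, 3.86% higher and 8.1% lower. Smpd1 in F2 missed the threshold with an adjusted p of 0.010002 (edgeR exact test). Thus 5 genes were called in F1 and F2 alike, 1 higher and 4 lower, where 7.67% of all tested genes were called in both, 1.6% higher and 6.07% lower. With the quasi-likelihood test of edgeR, 4 genes were called in F1 (Smpd1, Smpd3, Smpd4 and Nsmaf) and 1 in F2 and in both (Smpd4). Called in both by the exact test were 1 gene without WT replicate 1, 3 without WT replicate 2, 4 without F1 replicate 1, 3 without F1 replicate 2 and 1 without either F2 library, Smpd4 each time among them. The 2 WT libraries served as the reference of both comparisons. The study itself drew 7 of the 9 genes (all but Smpdl3a and Smpdl3b) into its sphingolipid list on these same libraries. The counts are therefore not independent evidence of a change in this family. The study listed these 7 as changed in both F1 and F2, whereas here, at q under 0.01, Asah2 was called in neither and Smpd1 in F1 alone. The study's methods give a threshold of 0.05. At q under 0.05 by the exact test, 7 of the 9 genes passed in F1, 6 in F2 and 6 in both. Smpd1 then passed in both, and Asah2 in F1 only. Counted by library, the 4 F1 and F2 libraries lay above both WT libraries for Smpd1, Smpd3 and Asah2 and below both for Smpd2, Smpd4, Nsmaf and Cln3, 7 of 9 genes in all. Of all tested genes, 44.7% had their 4 F1 and F2 libraries on one side of both WT libraries, 21.0% above and 23.7% below.

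**Figure D1:**
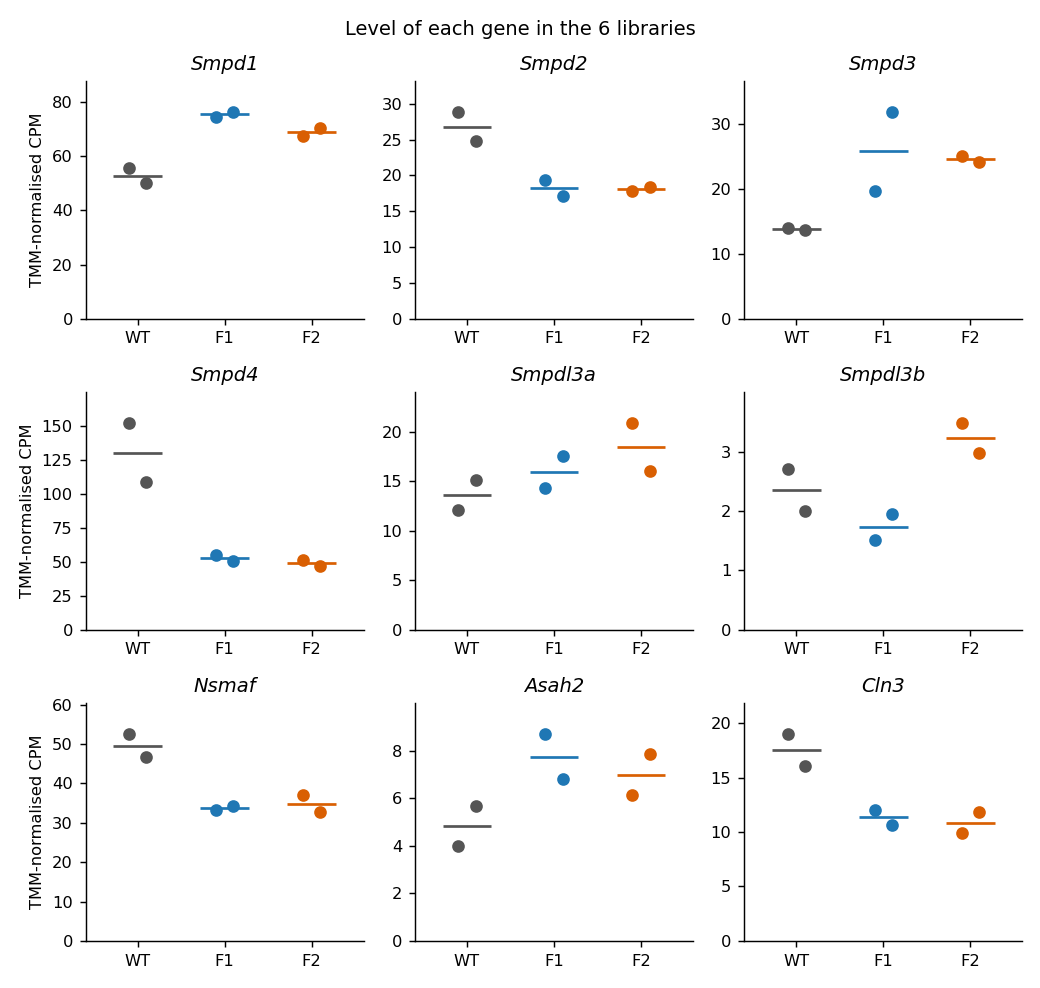
TMM-normalised CPM (vertical axes, starting at 0, each with its own scale) of the 9 genes in WT, F1 and F2; points are libraries (n = 2 per group) and bars are group means. Smpd4 lay at 152 and 109 CPM in the WT libraries and between 47.1 and 55.1 CPM in the 4 others, whereas all 4 F1 and F2 libraries lay above WT for Smpd1, Smpd3 and Asah2.

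The largest change of the 9 genes was that of Smpd4, on the plus strand of chromosome 16 from 17619447 to 17644921 (mm9; ENSMUSG00000005899.6). It was counted at 152 and 109 CPM in WT replicates 1 and 2, at 55.1 and 50.4 CPM in F1, and at 51.3 and 47.1 CPM in F2. The WT libraries differed from each other by more than any pair of F1 and F2 libraries did, and still the lower of them stood at more than all 4 others. Smpd4 fell to 0.404 of the WT level in F1 (log2 fold change -1.31, SE 0.15, adjusted p = 6.01e-15, edgeR exact test) and to 0.377 of it in F2 (log2 fold change -1.41, SE 0.15, adjusted p = 6.31e-17, edgeR exact test). Without WT replicate 1, the log2 fold change was -1.04 in F1 and -1.14 in F2, and both calls held, as they did without any other library.

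The neutral sphingomyelinase of the plasma membrane and Golgi, Smpd3, which is most studied in neurons and takes part in the release of exosomes, moved the other way. The gene lies on the minus strand of chromosome 8 from 108779159 to 108789819 (mm9; ENSMUSG00000031906.7). Its level was 13.9 and 13.7 CPM in WT, 19.7 and 31.8 CPM in F1, and 25.1 and 24.2 CPM in F2. The WT libraries nearly coincided, and all 4 offspring libraries lay above them, F1 replicate 1 by the least and F1 replicate 2 by the most. Smpd3 rose 1.87-fold in F1 (log2 fold change 0.90, SE 0.20, adjusted p = 0.000186, edgeR exact test) and 1.79-fold in F2 (log2 fold change 0.84, SE 0.20, adjusted p = 0.000625, edgeR exact test). Without F1 replicate 2, the F1 log2 fold change was 0.52 and the adjusted p by edgeR's exact test 0.0306, and without WT replicate 1 or 2 that p was 0.0114 or 0.0103. In F2 the adjusted p of edgeR's exact test was 0.0219 or 0.0184 without WT replicate 1 or 2, and 0.0275 or 0.0125 without F2 replicate 1 or 2.

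Smpd2, the neutral enzyme of the ER, fell by less than Smpd4. It lies on the minus strand of chromosome 10 from 41205448 to 41210175 (mm9; ENSMUSG00000019822.6). The WT libraries held 28.9 and 24.8 CPM, the F1 libraries 19.3 and 17.1 CPM, and the F2 libraries 17.8 and 18.3 CPM. All 4 offspring libraries were below both WT libraries, at 0.678 of the WT level in F1 (log2 fold change -0.56, SE 0.15, adjusted p = 0.00326, edgeR exact test) and 0.673 of it in F2 (log2 fold change -0.57, SE 0.15, adjusted p = 0.00271, edgeR exact test). By edgeR's quasi-likelihood test, which allows for uncertainty in each gene's dispersion, the adjusted p for Smpd2 was 0.0153 in F1 and 0.0144 in F2. Its F1 call was also lost without WT replicate 1, F1 replicate 2 or F2 replicate 2 (adjusted p = 0.118, 0.078 and 0.0107, edgeR exact test), and its F2 call without WT replicate 1, F2 replicate 1 or F2 replicate 2 (adjusted p = 0.122, 0.0978 and 0.0515, edgeR exact test).

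The lysosomal enzyme, Smpd1, whose loss causes Niemann-Pick disease types A and B, lies on the plus strand of chromosome 7 from 112702874 to 112706902 (mm9; ENSMUSG00000037049.8). Smpd1 was at 55.54 and 49.99 CPM in WT, 74.6 and 76.3 CPM in F1, and 67.4 and 70.4 CPM in F2. The F2 libraries lay between the WT and the F1 libraries, without overlap. In F1, Smpd1 rose 1.43-fold (log2 fold change 0.52, SE 0.12, adjusted p = 0.000244, edgeR exact test), and without WT replicate 2 its adjusted p was 0.0202 (edgeR exact test). In F2 its log2 fold change was 0.38 (SE 0.12, 95% interval 0.15 to 0.62), with the adjusted p of 0.010002 given above, which was 0.00615 or 0.006 without F1 replicate 1 or 2, 0.0247 or 0.129 without WT replicate 1 or 2, and 0.076 or 0.123 without F2 replicate 1 or 2 (edgeR exact test). By the quasi-likelihood test of edgeR the adjusted p in F2 was 0.0242. F2 was not shown to differ from F1 (log2 fold change -0.13, 95% interval -0.36 to 0.10, adjusted p = 0.911, edgeR exact test).

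How these opposite moves bear on the pool of sphingomyelinase transcripts depends on abundance, which can be compared between genes per length only. Divided by the length of the longest coding transcript, the WT order was Smpd4 (28.2 CPM per kb, mean of 2 libraries), Smpd1 (21.9), Smpd2 (16.7), Nsmaf (14.1), Smpd3 (7.01), Smpdl3a (6.94), Cln3 (5.46), Smpdl3b (1.17) and Asah2 (1.03). In this order Smpd3 and Smpdl3a, and Smpdl3b and Asah2, overlapped in their libraries, and the other neighbours did not. In F1 and F2 alike, Smpd1 came first, at 31.3 and 28.6 CPM per kb, and Smpd3 next by the mean, at 13.1 and 12.5 CPM per kb. In F1 that place rested on replicate 2 (16.2 CPM per kb), since in replicate 1 Smpd3 (9.997 CPM per kb) lay below Smpd4 (11.9) and Smpd2 (12.1). Smpd4, at 11.4 CPM per kb in F1 and 10.6 CPM per kb in F2, and Smpd2, at 11.4 CPM per kb in F1 and 11.3 CPM per kb in F2, then overlapped in their libraries. With the length of all annotated exons in place of the coding transcript, Smpd1 was already first in WT (21.9 CPM per kb against 14.6 CPM per kb for Smpd4), and Smpd3 (7.01), Smpdl3a (6.59), Smpd2 (6.003) and Nsmaf (5.91) followed, so the WT order of these 6 genes rests on the length used.

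By compartment, the enzymes of the ER and nuclear envelope lost share while those of the lysosome and of the plasma membrane gained it. Of the summed CPM per kb of Smpd1 to Smpd4 (coding transcript length), Smpd4 took 40.6% and 35.3% in the WT libraries, 18.3% and 15.7% in F1, and 17.6% and 16.1% in F2. The share of Smpd2 was 22.2% and 23.2% in WT, 18.6% and 15.3% in F1, and 17.6% and 18.1% in F2. Smpd1 took 28.4% and 31.1% in WT, 47.7% and 45.6% in F1, and 44.45% and 46.24% in F2. Smpd3 took 8.74% and 10.4% in WT, 15.4% and 23.3% in F1, and 20.3% and 19.5% in F2. For each of the 4 enzymes, no F1 or F2 library reached the range of the WT libraries, with either length. The ratio of Smpd4 to Smpd3 was 4.64 and 3.39 in WT and between 0.67 and 1.19 in the 4 other libraries; with the length of all annotated exons it was 2.41 and 1.75 in WT and between 0.35 and 0.62 in the others, so whether Smpd4 ended near or well below Smpd3 rests on the length used. The sum of the 4 enzymes moved less: it was 81.04 and 66.65 CPM per kb in WT, 64.9 and 69.4 CPM per kb in F1, and 62.9 and 63.1 CPM per kb in F2, so that F1 overlapped WT and F2 lay just below it. With the length of all annotated exons the sum was 53.6 and 45.4 CPM per kb in WT, 51.5 and 57.3 CPM per kb in F1, and 50.4 and 50.9 CPM per kb in F2, so that F2 lay within the WT range and F1 reached above it, and the direction of the sum rests on the length used. The split by compartment coincides with that by annotated retained-intron transcripts, described below: 7 in Smpd2, 6 in Smpd4, and 0 in Smpd1 and Smpd3. With these 4 genes the groupings cannot be told apart. These are shares of transcripts, and no enzyme activity or protein was measured here.

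**Figure D2:**
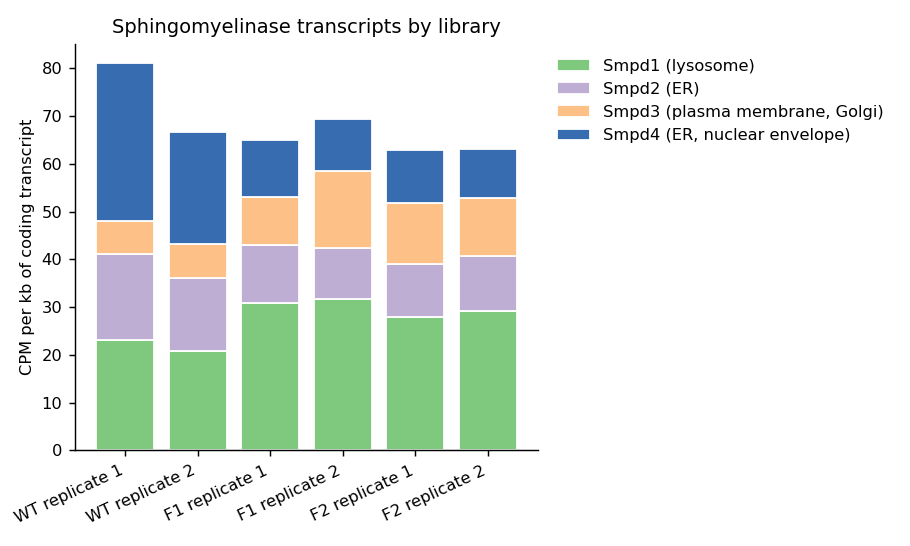
Stacked CPM per kb of longest coding transcript (vertical axis, from 0) of Smpd1 to Smpd4 in each of the 6 libraries, coloured by enzyme with its compartment. Smpd4 made up 40.6% and 35.3% of the sum in the WT libraries and at most 18.3% in F1 and F2, while the sums ranged from 62.9 to 81.0 CPM per kb.

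Nsmaf fell with Smpd2 and Smpd4. It lies on the minus strand of chromosome 4 from 6323354 to 6381418 (mm9; ENSMUSG00000028245.8). Its libraries held 52.4 and 46.6 CPM in WT, 33.2 and 34.3 CPM in F1, and 36.9 and 32.7 CPM in F2. The groups F1 and F2 overlapped, and both stayed below WT. Nsmaf was at 0.681 of the WT level in F1 (log2 fold change -0.55, SE 0.13, adjusted p = 0.000486, edgeR exact test) and at 0.703 of it in F2 (log2 fold change -0.51, SE 0.13, adjusted p = 0.0017, edgeR exact test). The F1 call was lost without WT replicate 1 or F1 replicate 1 (adjusted p = 0.0407 and 0.0121, edgeR exact test), and the F2 call without WT replicate 1, F2 replicate 1 or F2 replicate 2 (adjusted p = 0.0851, 0.0164 and 0.104, edgeR exact test).

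Cln3 sits in the membrane of the lysosome that holds Smpd1, and was called lower in F1 where Smpd1 was called higher. It lies on the minus strand of chromosome 7 from 133714721 to 133729331 (mm9; ENSMUSG00000030720.10). Cln3 was at 18.97 and 16.02 CPM in WT, 12.02 and 10.69 CPM in F1, and 9.87 and 11.8 CPM in F2. The offspring libraries were all below WT. Cln3 fell to 0.648 of the WT level in F1 (log2 fold change -0.63, SE 0.18, adjusted p = 0.00518, edgeR exact test) and to 0.619 of it in F2 (log2 fold change -0.69, SE 0.18, adjusted p = 0.00181, edgeR exact test). By the quasi-likelihood test of edgeR the adjusted p was 0.0201 in F1 and 0.0137 in F2. The F1 call was lost without WT replicate 1 or 2, F1 replicate 1 or 2, or F2 replicate 2 (adjusted p = 0.143, 0.0105, 0.0107, 0.0896 and 0.011, edgeR exact test), and the F2 call without WT replicate 1, F2 replicate 1 or F2 replicate 2 (adjusted p = 0.101, 0.138 and 0.013, edgeR exact test).

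The other 3 genes were not called in F1 or F2. Asah2, which acts on ceramide after the sphingomyelinases, was low, at 3.97 and 5.67 CPM in WT, 8.68 and 6.80 CPM in F1, and 6.13 and 7.83 CPM in F2. Its 4 offspring libraries lay above WT, with log2 fold changes of 0.69 in F1 (95% interval 0.20 to 1.17, adjusted p = 0.033, edgeR exact test) and 0.54 in F2 (95% interval 0.05 to 1.03, adjusted p = 0.115, edgeR exact test). Smpdl3a, a secreted and lysosomal protein, was at 12.1 and 15.1 CPM in WT, 14.3 and 17.6 CPM in F1, and 20.9 and 16.1 CPM in F2. F1 overlapped WT and F2 did not, and the log2 fold changes were 0.23 (95% interval -0.15 to 0.61, adjusted p = 0.442, edgeR exact test) and 0.44 (95% interval 0.06 to 0.82, adjusted p = 0.0895, edgeR exact test). Smpdl3b, a membrane-anchored protein known from macrophages and podocytes, rested on 46 to 93 reads a library.

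Between F2 and F1, a comparison that does not use the WT libraries, 0 of the 9 genes were called by edgeR's exact test, against 0.74% of all tested genes; 1 of the 9 had an unadjusted p under 0.05 by that test, by the quasi-likelihood test and by DESeq2's Wald test. That gene was Smpdl3b, at 2.71 and 2.01 CPM in WT, 1.52 and 1.94 CPM in F1, and 3.48 and 2.97 CPM in F2. Its F1 libraries lay below and its F2 libraries above both WT libraries, a split between F1 and F2 that 1.66% of all tested genes showed in either direction. The F2 level was 1.86 times that of F1 (log2 fold change 0.89, 95% interval 0.34 to 1.45, adjusted p = 0.1, edgeR exact test). For the 5 genes called in both comparisons, the F2 against F1 log2 fold change ranged from -0.10 in Smpd4 to 0.05 in Nsmaf, and the intervals reached from -0.45 to 0.33 at most.

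**Figure D3:**
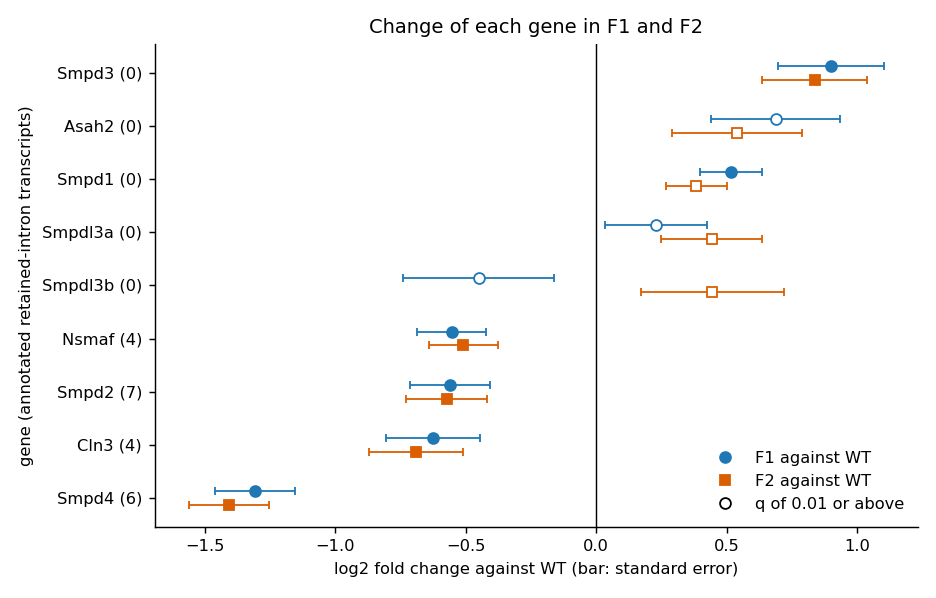
Log2 fold change against WT (horizontal axis; bars are standard errors) of the 9 genes in F1 (circles) and F2 (squares); filled symbols have q under 0.01, and the number after each gene counts its retained-intron transcripts in GENCODE M1. The 4 genes called lower carry 4 to 7 such transcripts and the 5 others carry 0.

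The 4 of the 9 genes that were called lower shared a feature of their annotation. In GENCODE M1 (mm9), the annotated exons of Smpd2, Smpd4, Nsmaf and Cln3 include 7, 6, 4 and 4 transcripts of the class retained intron, which span an intron that the coding transcripts remove. The other 5 genes have 0. Of the exon bases of Smpd2, 64.1% lie outside its coding transcripts, and the value is 44.8% for Smpd4, 53.4% for Nsmaf, 38.5% for Cln3, 3.15% for Smpdl3a and 0% for Smpd1, Smpd3, Smpdl3b and Asah2. This feature was looked for after the fold changes were known. Cers4 and Degs2, the genes of the turnover list below that were called lower, have 0 such transcripts. Genes of that list with 3 or more such transcripts, among them Sgms1 with 4, were called in neither F1 nor F2. Among all 15192 protein-coding genes tested with an annotation, 4807 (31.6%) have at least 1 such transcript, and 8.36% of these were called lower and 1.16% higher in both F1 and F2. Of the 10385 genes without one, 4.48% were called lower and 2.01% higher in both. With 3 or more such transcripts, 15.5% of 1545 genes were called lower and 0.518% higher.

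**Figure D4:**
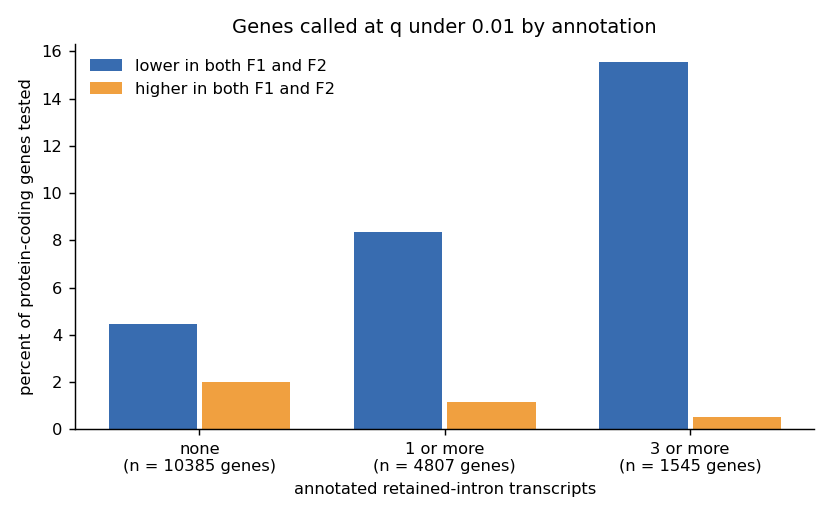
Percent of tested protein-coding genes (vertical axis, from 0) called lower or higher in both F1 and F2, by the number of annotated retained-intron transcripts (horizontal axis; the group of 1 or more contains that of 3 or more). Genes called lower made up 4.48%, 8.36% and 15.5% of the 3 classes, and genes called higher 2.01%, 1.16% and 0.518%.

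A read within such a retained intron is counted for the gene if the annotation given to HTSeq holds that transcript, and is set aside as outside all features if it does not. Which gene models beyond the NCBIM37 build were used for counting is not given in the sources used here. The share of uniquely aligned reads that fell outside all features was 17.7% and 20.7% in WT, 13.8% and 12.2% in F1, and 13.9% and 17.4% in F2, lower in all F1 and F2 libraries than in WT, and its part in the results was not tested. In a likelihood-ratio test of edgeR with a correction of each library for GC content, length and the share of exon bases outside coding transcripts, added after seeing the data, the log2 fold changes of Smpd4 were -1.24 in F1 and -1.36 in F2, and those of Smpd2 were -0.40 and -0.37, with adjusted p of 0.0153 and 0.0266 for Smpd2. Nsmaf (-0.48 and -0.44) and Cln3 (-0.55 and -0.61) were still called with it. Whether reads of the 4 genes came from spliced or unspliced RNA was not tested.

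Sequences before the start sites are shown for the gene with the largest fall, for the lysosomal pair called in opposite directions in F1 and for the gene of the ER with a head-to-head neighbour. Start sites are those of RefSeq on GRCm38.p6, which gave a promoter entry for 6 of the 9 genes (Smpd1, Smpd2, Smpd4, Smpdl3b, Asah2 and Cln3) and none for Smpd3, Smpdl3a and Nsmaf. Every entry occurred exactly 1 time in its mm9 chromosome, and positions are given there. Capitals mark the GC box GGGCGG, the E-box CACGTG with its longer form TCACGTGA, and the CCAAT box CCAAT, each searched on both strands in the 250 bases before the start; the longer form contains the E-box. Of 32851 promoter entries of this length, 32.7% hold the GC box, 6.02% the E-box, 0.785% its longer form and 33.8% the CCAAT box. The first 2 lines give the 250 bases before Smpd4 (chr16:17619197-17619446, plus strand) and Smpd1 (chr7:112702624-112702873, plus strand). The third gives the 69 bases between Smpd2 and the divergent gene Ppil6 (chr10:41210176-41210244, minus strand), and the last 30 bases around the longer E-box of Cln3 (chr7:133726854-133726883, minus strand).
Smpd4: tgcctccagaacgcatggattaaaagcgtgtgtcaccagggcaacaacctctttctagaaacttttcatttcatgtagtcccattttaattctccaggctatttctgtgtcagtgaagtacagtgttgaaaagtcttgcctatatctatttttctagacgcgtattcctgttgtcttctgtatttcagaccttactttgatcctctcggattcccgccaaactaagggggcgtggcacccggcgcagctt
Smpd1: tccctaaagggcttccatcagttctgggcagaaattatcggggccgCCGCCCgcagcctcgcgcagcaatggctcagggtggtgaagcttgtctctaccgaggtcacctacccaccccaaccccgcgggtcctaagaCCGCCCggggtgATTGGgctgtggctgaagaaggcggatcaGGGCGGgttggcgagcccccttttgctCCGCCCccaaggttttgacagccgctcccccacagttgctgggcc
Smpd2: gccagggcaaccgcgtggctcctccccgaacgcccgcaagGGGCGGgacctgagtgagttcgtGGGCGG
Cln3: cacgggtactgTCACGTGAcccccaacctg
The Smpd4 stretch holds none of these motifs and 44.8% G and C, and that of Smpd1 holds 4 GC boxes and 1 CCAAT box at 64.8% G and C. In the 250 bases before the RefSeq start of Smpd2, which is 29 bases inside the annotated gene, there are 4 GC boxes and 1 E-box. These bases reach past the gap shown into Ppil6, where 2 of the GC boxes and the E-box lie. Cln3 has 2 RefSeq starts: before the one inside the gene, 2581 bases from its annotated start at 133729331, there are 2 GC boxes and 2 E-boxes, 1 of them in the longer form, which is the core of the element that TFEB binds before many lysosomal genes. Before the other RefSeq start, which is the annotated start, there are 0 GC boxes, 0 E-boxes and 1 CCAAT box. A match of letters is a description and shows no binding.

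Of 22 genes that flank the 9 genes or overlap their exons, 18 were tested, 0 were called in both F1 and F2, and 2 were called in 1 comparison by edgeR's exact test: Apbb1, 98 bases from Smpd1, rose in F1 (log2 fold change 0.44, adjusted p = 0.00229, edgeR exact test), and Tox, 232082 bases from Nsmaf, rose in F2 (log2 fold change 0.93, adjusted p = 0.000371, edgeR exact test). Over all tested genes 12.3% were called in F1, 12% in F2 and 7.67% in both. At an unadjusted p under 0.05 by the exact test, 6 of the 18 passed in F1, 3 in F2 and 1 in both. By the quasi-likelihood test 2 passed in both, and by DESeq2's Wald test 1. These tools also called 0 in both. The quasi-likelihood test called none in F1, so the call of Apbb1 was lost. Beside the share of 7.67% over all tested genes, a count of 0 in 18 genes is no result about the neighbours. Exons of Smpd2 share 905 bases (20.3%) with Mical1 on the other strand, those of Cln3 442 bases (7.65%) with Apobr, and those of Nsmaf 215 bases (2.57%) with other genes, 78 with Sdcbp on the other strand and 137 with the pseudogene Gm10056 on the same strand. The strand setting of the counting is not given in the sources used here, and no such setting separates Nsmaf from Gm10056, so the levels of the 3 genes are uncertain to that extent. Mical1 had log2 fold changes of -0.40 and -0.30 (adjusted p = 0.118 and 0.275, edgeR exact test), and Ppil6, whose start faces that of Smpd2, had -0.48 and -0.69 (adjusted p = 0.23 and 0.0713, edgeR exact test).

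A list of 39 other genes of sphingomyelin and ceramide turnover had 35 tested members, and 2 were called in F1 (Cerk higher, Cers4 lower), 2 in F2 (Cers4 and Degs2, both lower) and 1 in both, where 12.3%, 12% and 7.67% of all tested genes were called. The median log2 fold change of the list was -0.01 in F1 and 0.06 in F2, against 0.01 and 0.00 over all tested genes. Cers4, a ceramide synthase, was at 71.6 and 53.2 CPM in WT, 44.3 and 43.2 CPM in F1, and 39.5 and 42.3 CPM in F2 (log2 fold changes -0.51 and -0.61, adjusted p = 0.0049 and 0.000603, edgeR exact test). This count of genes called in both was 0 without WT replicate 1, F1 replicate 2, F2 replicate 1 or F2 replicate 2, and 2 without WT replicate 2. The sphingomyelin synthases that work against the sphingomyelinases had log2 fold changes of 0.30 in F1 and 0.26 in F2 for Sgms1, 0.32 and 0.21 for Sgms2, and 0.34 and 0.22 for the related Samd8, and 0 of the 3 were called (the lowest of their 6 adjusted p by edgeR's exact test was 0.022). At an unadjusted p under 0.05 by that test 2 of the 3 passed in F1 and 0 in F2; by the quasi-likelihood test 2 passed in each comparison and in both, and by DESeq2's Wald test 2 in F1 and 1 in both, and neither tool called any of the 3. Asah1, the acid ceramidase that follows Smpd1 in the lysosome, had 0.00 and -0.02.

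Of 12 receptors and adaptors known upstream of neutral sphingomyelinase, 10 were tested and 2, the cytokine genes Tnf and Il1b, had too few counts. By edgeR's exact test 0 were called in F1, 1 in F2 and 0 in both, where the shares over all tested genes were 12.3%, 12% and 7.67%, so that counts this low in 10 genes are no result about the list. At an unadjusted p under 0.05 by that test 4 passed in F1, 2 in F2 and 2 in both. DESeq2's Wald test called 0 in F1 and 1 in F2, and the quasi-likelihood test called 0 in either comparison. The one in F2 was Tnfrsf1a, the receptor to which the Nsmaf protein binds, at 5.32 and 4.44 CPM in WT, 5.97 and 8.42 CPM in F1, and 9.12 and 8.80 CPM in F2. Its libraries were above WT in both groups, with log2 fold changes of 0.56 (adjusted p = 0.0652, edgeR exact test) and 0.87 (adjusted p = 0.00172, edgeR exact test), while Nsmaf fell. The median log2 fold change of the 10 genes was 0.00 in F1 and 0.07 in F2. Eed and Gnb2l1, further partners of Nsmaf in this pathway, had log2 fold changes of 0.03 and -0.04 in F1 and of -0.08 and 0.06 in F2. Tnfrsf1a is also expressed by glia and endothelium, and the marker sums of microglia and astrocytes were higher in all F1 and F2 libraries than in WT, as given above. The 6 endothelial genes summed to 81.6 and 86.5 CPM in WT, 94.0 and 114 CPM in F1, and 118 and 114 CPM in F2, likewise higher in all 4 libraries, with 1 called in F1 and 1 in F2. Their part in the level of Tnfrsf1a was not tested.

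Cln3 was called lower, and the called genes of a lysosomal list higher. Of 19 other genes of neuronal ceroid lipofuscinosis and the lysosome, all tested, 4 were called in both F1 and F2 and all 4 were higher, among them Scarb2, Ctsd and Lamp1. Of all tested genes 7.67% were called in both, 1.6% higher. The median log2 fold change of the list was 0.18 in F1 and 0.11 in F2, against 0.01 and 0.00 over all tested genes. Scarb2, the receptor that carries glucocerebrosidase to the lysosome, rose from 16.2 and 17.2 CPM in WT to 24.7 and 36.1 CPM in F1 and 39.7 and 31.5 CPM in F2 (log2 fold changes 0.86 and 1.09, adjusted p = 0.000115 and 4.81e-07, edgeR exact test). The protease gene Ctsd had log2 fold changes of 0.51 and 0.41 (adjusted p = 0.000269 and 0.00522, edgeR exact test), and Lamp1, a main protein of the lysosomal membrane, of 0.43 and 0.39 (adjusted p = 0.0015 and 0.00514, edgeR exact test). Not all members went up: Tpp1 had log2 fold changes of -0.34 and -0.33, and 7 of the 19 were below 0 in F2. Of the 19, 0 were called in both without WT replicate 1, 2 without WT replicate 2, 1 without F1 replicate 2, 2 without F2 replicate 1 and 1 without F2 replicate 2, and 2 by the quasi-likelihood test. These genes are active in glia too, whose marker sums are given above.

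**Figure D5:**
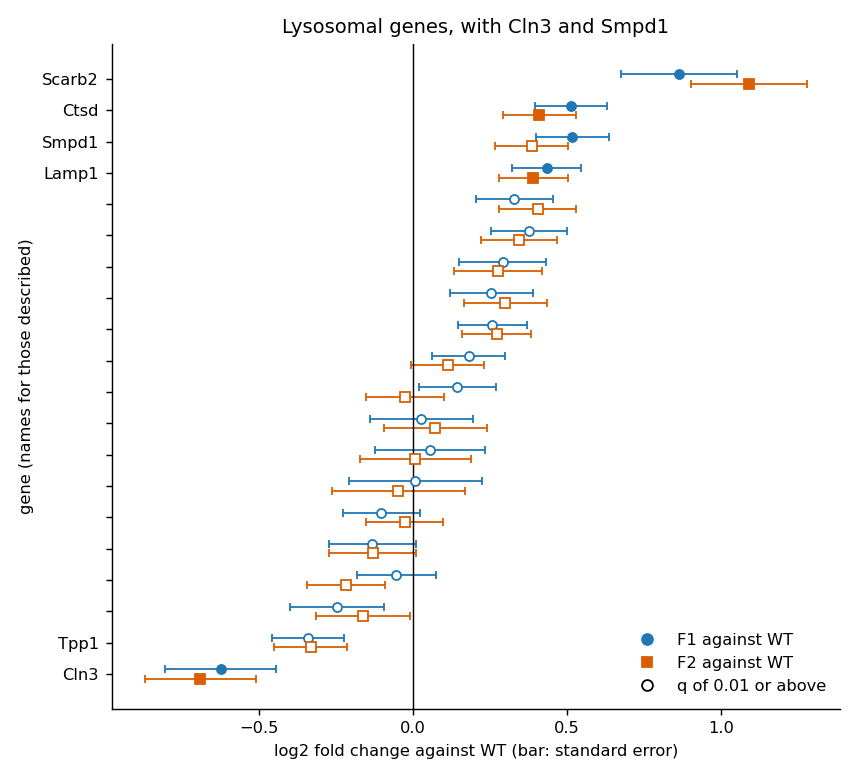
Log2 fold change against WT (horizontal axis; bars are standard errors) in F1 (circles) and F2 (squares) of 18 lysosomal genes of the list, 1 gene to a row, with Cln3 and Smpd1; filled symbols have q under 0.01, and names are given for the genes described. Scarb2, Ctsd and Lamp1 were called higher in both groups, and Cln3 lies at the lower end with -0.63 and -0.69.

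The pattern of single genes across the libraries placed Smpd4 and Smpd3 among different genes. Over the 6 libraries and 10074 genes with a mean of at least 10 CPM, the genes with log2 CPM most correlated with Smpd4 were Rbm28, Mtap7, Cpsf1, Slc7a6 and Ttc13 (Pearson r from 0.9991 to 0.9995), all highest in WT replicate 1 and next highest in WT replicate 2. Among the 5 genes closest to Smpd3 were Slc30a4, Mgll, 4933439F18Rik and Zfyve9 (r from 0.992 to 0.995), all highest in F1 replicate 2, and Mgll encodes the lipase that degrades an endocannabinoid. The points are 6 libraries in 3 groups, which share the difference between WT and offspring and 1 high library each, and the values are descriptions. Of the 5 genes closest to Smpd4, 2 (Rbm28 and Ttc13) have annotated retained-intron transcripts, 4 and 6. Of the 5 closest to Smpd3, 0 do. Among all protein-coding genes tested 31.6% have at least 1, so that these counts are no result about either set.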

How the data were processed

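Ventral dentate gyrus RNA (poly(A)-selected, Illumina TruSeq RNA kit) of 6 libraries, 2 each of WT, F1 and F2, was analysed; bisulfite samples were not analysed here. The authors aligned 50 bp single-end reads to mm9 (TopHat, known junctions only) and deposited raw counts per gene symbol from HTSeq in intersection-strict mode, not normalised, which drop reads that align to several places, cross out of annotated exons or lie within exons of more than 1 gene. Groups and replicate numbers came from the labels, which give no batch.

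Counts were filtered (filterByExpr), normalised by TMM, and groups were compared by edgeR's exact test in version 4.0.16 (R 4.3.3), with common and tagwise dispersion over all 6 libraries (common value 0.0113, a coefficient of variation of 10.6%) and Benjamini-Hochberg adjustment over 17421 genes; q under 0.01 is the threshold of the study's results (0.05 in its methods). Standard errors follow from mean counts and dispersion (delta method), and 95% intervals from them. Depth ranged from 26358165 to 33727936 counts, and the number of libraries, more than counting error, limits precision for well-counted genes. For Smpdl3b, at 46 to 93 reads a library, counting error limits it as well. On simulated data the procedure recovered 97.5% of 200 changed genes in F1 against WT, with 2.01% of its calls false, and made 0 calls with no gene changed. The simulation gave every gene the common dispersion and changed well-counted genes only, all by the same fold. That fold was larger than the change of any called gene of the 9 but Smpd4, so these rates do not carry over to the real data. Alternatives were quasi-likelihood and likelihood-ratio tests, each also with replicate numbers as blocks, DESeq2 1.42.0, other normalisations and filters, and each library left out; corrections for GC content, length and retained introns, and a crossed block, were chosen after seeing the data.

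Positions, exon lengths and transcript classes came from GENCODE M1 (mm9; 33294 of 34620 symbols matched). The genes and lists were chosen with earlier results of these data known. Named are the 9 genes, listed genes called in both comparisons, the nearest and exon-overlapping neighbours, the 5 genes most correlated with Smpd4 and with Smpd3 (log2 of CPM + 0.5, mean of at least 10 CPM) and Htr1a; others are named where a count of 5 or fewer needed it. Some listed or correlated genes are not reported here by name, but stay in the counts and sums. Replicates were no duplicates (chi-square over its degrees of freedom, replicate 1 against 2: 24.9 in WT, 19.4 in F1 and 23.1 in F2).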

Additional observations from a re-analysis of the deposited data

Results flagged for a closer look

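Smpdl3b was singled out because its F1 libraries (1.52 and 1.94 CPM) lay below and its F2 libraries (3.48 and 2.97 CPM) above both WT libraries (2.71 and 2.01 CPM). The direct comparison of F2 with F1 gave a log2 fold change of 0.89 (SE 0.28, unadjusted p = 0.00196, adjusted p = 0.1, edgeR exact test), which does not pass the correction over all genes. Leaving out each library in turn moved it between 0.73 and 1.09. The counts behind it were low, 46 and 60 reads in F1 and 93 and 80 in F2.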

How the results depend on the processing

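Over 18 log2 fold changes of the 9 genes against WT and 21 alternative settings, 378 values in all, 0 changed direction, 317 stayed on the same side of the threshold, 51 dropped below it and 10 rose past it (all Smpd1 in F2). The 317 include values of Smpdl3a, Smpdl3b and Asah2, and of Smpd1 in F2, which had no call to lose. The 51 lost calls therefore came from fewer than the 378 values. Counts of the 9 genes called in F1, in F2 and in both were 6, 5 and 5. By the quasi-likelihood test they were 4, 1 and 1, with the replicate block added 2, 1 and 1, and with the GC and length correction 3, 3 and 3; leaving out 1 library gave 2 to 6, 1 to 6 and 1 to 4, the lone library of a group being taken to vary like the others. The turnover genes called in both numbered 1. They were 0 by the quasi-likelihood test, with the replicate block in it, with the replicate block in the likelihood-ratio test, without a low-count filter and by the quasi-likelihood test with GC and length correction. They were 2 with upper quartile normalisation, dispersion from the groups compared, and the likelihood-ratio test with GC and length or also retained-intron correction, 3 with the F2 numbers of the block crossed or at q under 0.05, and 0 to 2 without a library. The lysosome genes called in both numbered 4. They were 2 by the quasi-likelihood test and with a replicate block in it or in the likelihood-ratio test, 7 at q under 0.05, and 0 to 4 without a library. The activation genes called in both were 0 to 1 without a library. The replicate numbers did not pair the libraries: differences between replicates correlated at -0.027 (WT and F1), -0.083 (WT and F2) and -0.18 (F1 and F2). Over all genes, 2144 in F1 and 2084 in F2 were called, 1029 and 997 by the quasi-likelihood test, and 848 and 758 with the replicate block in it; the share of F1 calls that were higher was 30.6%, and 41.6% by the likelihood-ratio test with GC and length correction. The fold change of F2 against F1, never called for the 9 genes, changed sign for Smpd2 (0.0053 with upper quartile normalisation, 0.024 with the retained-intron correction, -0.098 to 0.078 without a library), and without a library ranged from -0.37 to 0.33 in Smpd3, -0.041 to 0.13 in Nsmaf, -0.34 to 0.036 in Asah2 and -0.20 to 0.060 in Cln3. Causes were not tested.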
